A study of Mus musculus with 8 samples.

Results

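The expression of 9 genes of fatty acid and triglyceride synthesis was compared between the kidneys of NEKO mice and littermate controls. The genes were listed by name, and the list was chosen with earlier results of these data known. They were the enzymes of fatty acid synthesis Acly, Acaca and Fasn, the chain elongase Elovl6, the desaturases Scd1 and Scd2, the acyltransferases Gpam and Dgat2, and the transcription factor gene Srebf1. All 9 had probes, among 18213 named genes on the array, and all 9 passed the filter on dim probes, as did 13566 named genes in all. Kidney RNA was hybridised to 1-colour Agilent arrays with 1 array per mouse, from 4 NEKO and 4 control mice aged 8 weeks, and each group held a pair of females and a pair of males. NEKO mice were Keap1-/-::Nrf2Flox/Flox::K5-Cre. Of the controls, 3 were K1Cre (Keap1+/-::Nrf2Flox/Flox::K5-Cre) and 1, the female with replicate number 1, was K1 (Keap1+/-::Nrf2Flox/Flox), which has no Cre. Every mouse therefore carried the floxed Nrf2 alleles, every control had lost 1 copy of Keap1, and no wild-type kidney was measured. K5-Cre is expressed in squamous epithelium, and which kidney cells had lost Nrf2 was not measured here. The strain background was mixed, with 129Sv/J and C57BL/6J contributions. Mice are named here by group, sex and the replicate number of the labels, which runs over both groups: control females 1 and 8, control males 4 and 7, NEKO females 2 and 3, and NEKO males 5 and 6.

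Fatty acid synthesis starts in the cytosol, where citrate exported from mitochondria is split to acetyl-CoA, acetyl-CoA is carboxylated to malonyl-CoA, and fatty acid synthase builds palmitate from these at the expense of NADPH. Palmitate is lengthened by elongases and desaturated by stearoyl-CoA desaturases, and the products are joined to glycerol 3-phosphate to make phospholipids and triglycerides. SREBP-1, encoded by Srebf1, is a transcription factor that activates most of these genes, acting with NF-Y at their promoters. NRF2 (encoded by Nfe2l2) is released from degradation when KEAP1 is lost, and activates antioxidant genes and enzymes that make NADPH.

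Promoter sequence of 6 of the 9 genes, in 9 windows, was taken from RefSeq (GRCm38.p6) as the 250 bases before each annotated start. No window of Scd1, Scd2 or Dgat2 was used here. Windows of Fasn and Srebf1 are shown because Fasn is a classical target of SREBP-1, whose own gene, Srebf1, had its highest levels in the 2 male NEKO kidneys. The Fasn window is chr11:120824548-120824797 on the minus strand, and the Srebf1 window is chr11:60210472-60210721 on the minus strand. Capitals mark the NF-Y box, CCAAT on either strand.
Fasn: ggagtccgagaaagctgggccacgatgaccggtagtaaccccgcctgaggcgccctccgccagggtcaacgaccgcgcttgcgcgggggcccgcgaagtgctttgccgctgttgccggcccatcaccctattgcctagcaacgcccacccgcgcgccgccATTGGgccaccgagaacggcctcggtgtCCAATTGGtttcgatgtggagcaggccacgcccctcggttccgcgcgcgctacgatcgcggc
Srebf1: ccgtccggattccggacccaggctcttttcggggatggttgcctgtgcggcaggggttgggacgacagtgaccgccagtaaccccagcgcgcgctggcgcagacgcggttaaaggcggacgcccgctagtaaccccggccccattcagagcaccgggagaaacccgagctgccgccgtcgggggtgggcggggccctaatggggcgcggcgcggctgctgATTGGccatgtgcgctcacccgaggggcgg
The Fasn window held 3 NF-Y boxes, with first bases at -90, -62 and -59 relative to the start, and the last 2 overlap. The Srebf1 window shown held 1 box, as did another of the 3 Srebf1 windows and 1 of the 2 Gpam windows. An NF-Y box was present in 33.85% of all 32851 RefSeq windows of this length. The letters of a sterol regulatory element (TCACNCCAC), an E-box (CACGTG) and an antioxidant response element (TGACNNNGC), sought on both strands, were in none of the 9 windows of these genes, against 1.053%, 6.021% and 10.16% of all windows. A match or its absence describes only these letters in these windows.

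Values below are log2 processed signals relative to the 75th percentile of the same array, so that 0 is that percentile itself and 1 unit is a doubling. Differences are NEKO minus control with their standard error (SE), from a limma model of genotype and sex, and p-values were adjusted by Benjamini-Hochberg across 19593 genes and unnamed transcripts. The arrays were alike in quality: 61.7% to 65.7% of probes were well above background, no spot was saturated, and correlations between arrays ran from 0.978 to 0.988. All females were on a single slide and all males on another. A difference between the sexes and one between the slides cannot be told apart, and values within each sex stand beside the pooled ones. The number of arrays limits the precision. Each limma p-value sets a difference against the spread between mice that the model leaves, with variances moderated across all genes tested.

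The labels were first checked by Keap1, which lay at 1.84 ± 0.07 in controls and 0.20 ± 0.17 in NEKO mice (SD, n = 4 each). The difference was -1.63 (SE 0.10, limma adjusted p = 0.00458), with no overlap between groups. Controls still carried 1 intact Keap1 copy, and whether the probe lies in the deleted part is not given in the sources used here. Nqo1, the prototypical NRF2 target, was at 1.24 to 2.46 in controls and 3.89 to 5.45 in NEKO mice. The Nqo1 difference of 2.62 (SE 0.43) had a limma adjusted p of 0.0651. Nfe2l2 was at 3.28 and 3.22 in control females 1 and 8, and 1.90 and 3.05 in control males 4 and 7. It was at 2.00 and 1.92 in NEKO females 2 and 3, and 2.71 and 2.97 in NEKO males 5 and 6. The Nfe2l2 difference was -0.46 (SE 0.39, limma adjusted p = 0.550), from -1.29 in females and 0.37 in males. Levels in whole kidney do not show which cells had lost Nrf2, and the cause was not tested.

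None of the 9 synthesis genes was called between NEKO and control kidneys at an adjusted p under 0.05. Among all named genes tested, 38 were called (0.28%), of which 15 were higher (0.111%) and 23 lower (0.17%). In 7 of the 9 genes the difference was positive and in 2 it was negative, with a median of 0.06, beside a median of -0.02 over all named genes. None of the 9 had NEKO and control values that did not overlap, where 9.58% of named genes did. Scd1 and Scd2 had an unadjusted limma p under 0.05, 2 of 9 genes and both higher, beside 18.3% of named genes in either direction and 8.15% higher. The smallest differences were those of the enzymes of palmitate synthesis, the largest were those of the desaturases, and Scd2 and Srebf1 had their highest values in the NEKO males.

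**Figure D1:**
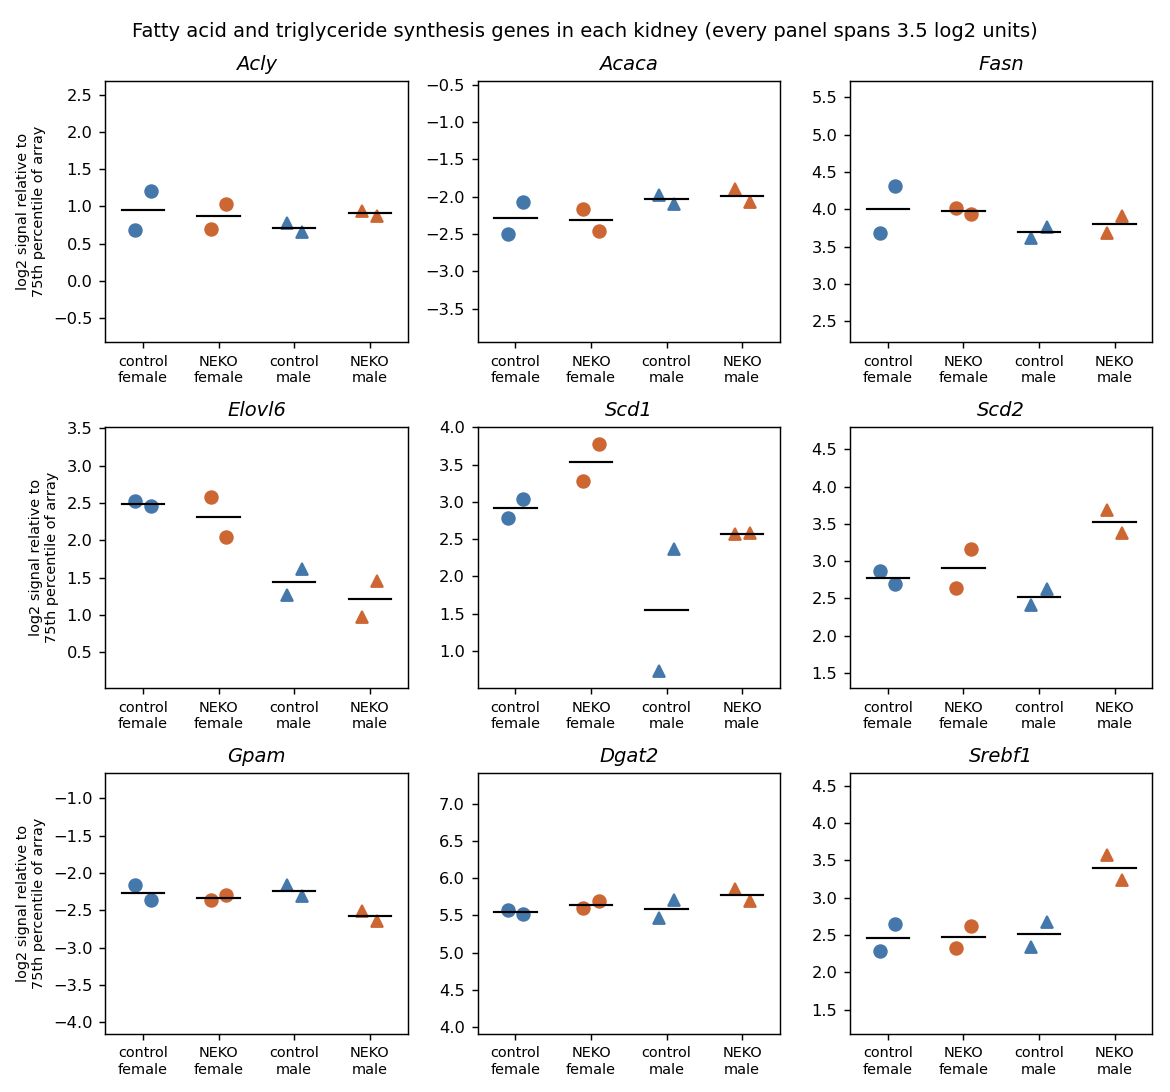
Level of each of the 9 genes in each kidney, as log2 signal over the array's 75th percentile (vertical axis, 3.5 log2 units in every panel), for control and NEKO females (circles) and males (triangles); each point is 1 mouse and the bar is the mean of the pair. Elovl6 and Scd1 separate by sex, which coincides with slide, while Scd2 and Srebf1 are highest in the NEKO males.

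The 3 enzymes that make palmitate had nearly the same levels in both groups. Acly, ATP citrate lyase, which releases acetyl-CoA from citrate, was at 0.69 and 1.21 in control females 1 and 8, 0.77 and 0.65 in control males 4 and 7, 0.70 and 1.04 in NEKO females 2 and 3, and 0.94 and 0.87 in NEKO males 5 and 6. Both NEKO males were above both control males, but all NEKO values fell within the control range set by the females. The difference was 0.06 (SE 0.14), with a 95% interval of -0.28 to 0.40. Acaca, acetyl-CoA carboxylase, which makes malonyl-CoA, was read from its brightest probe at -2.50 and -2.07 in the control females, -1.98 and -2.10 in the control males, -2.17 and -2.46 in the NEKO females, and -1.90 and -2.07 in the NEKO males. The groups overlapped, and the difference was 0.01 (SE 0.12, interval -0.28 to 0.30). Its other 2 kept probes were dim, well above background on 6 and 4 of the 8 arrays, and gave differences of 0.21 (SE 0.48) and -0.48 (SE 0.51). Fasn, fatty acid synthase, was at 3.68 and 4.32 in the control females, 3.62 and 3.76 in the control males, 4.02 and 3.94 in the NEKO females, and 3.68 and 3.92 in the NEKO males. Control female 8 had the highest Fasn value of all mice, and the NEKO values lay inside the control range. The Fasn difference was 0.04 (SE 0.15, interval -0.30 to 0.39), and that of its second probe 0.05 (SE 0.15). On the linear scale these intervals ran from 0.823-fold to 1.32-fold for Acly, 0.824-fold to 1.23-fold for Acaca and 0.812-fold to 1.31-fold for Fasn. Changes within these bounds remain possible, and the smallest detectable change was not computed. The sign of all 3 differences depended on single mice: without control female 1, the only K1 mouse, the differences of Acly, Acaca and Fasn were -0.02, -0.07 and -0.07.

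Of the 9 genes, Scd1 and Elovl6 had the widest ranges over the 8 kidneys, 3.04 and 1.61. Elovl6, which lengthens palmitate to stearate, was at 2.52 and 2.46 in control females 1 and 8, 1.26 and 1.62 in control males 4 and 7, 2.58 and 2.04 in NEKO females 2 and 3, and 0.97 and 1.46 in NEKO males 5 and 6. All females were above all males, whatever the genotype, while NEKO and control values overlapped within each sex. The genotype difference was -0.21 (SE 0.16, interval -0.59 to 0.18, limma adjusted p = 0.526). It was -0.10 without NEKO female 3 or NEKO male 5, -0.13 without control male 7, and -0.32 without NEKO female 2. Scd1, which places the double bond in stearate and palmitate, was at 2.78 and 3.04 in the control females, 0.74 and 2.37 in the control males, 3.28 and 3.77 in the NEKO females, and 2.56 and 2.58 in the NEKO males. NEKO mice were above controls within each sex, and control male 4 lay far below every other mouse. The difference of 0.82 (SE 0.34, interval 0.02 to 1.62), or 1.76-fold, had a limma p of 0.0459 before and 0.271 after adjustment, and an exact two-sided permutation test of 4 against 4 mice gave p = 0.229, where the smallest possible is 0.0286. Without control male 4 the Scd1 difference was 0.45, and without control male 7 it was 1.11. In the same control male 4, Nqo1 was also at its lowest, 1.24.

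Scd2, the desaturase paralogue expressed widely outside the liver, was at 2.86 and 2.69 in the control females, 2.41 and 2.63 in the control males, 2.64 and 3.16 in the NEKO females, and 3.69 and 3.37 in the NEKO males. The 2 NEKO males were above every other mouse, and the NEKO females lay on both sides of the control females. The difference of 0.57 (SE 0.22, interval 0.06 to 1.08), or 1.48-fold, had a limma p of 0.0344 before and 0.241 after adjustment, and an exact permutation p of 0.0857. It was 0.12 in females and 1.01 in males. Leaving out single mice kept it between 0.42 and 0.76.

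The 2 genes of triglyceride assembly differed by less than 0.25 in either direction. Gpam, the mitochondrial acyltransferase that starts glycerolipid synthesis, was at -2.17 and -2.36 in the control females, -2.16 and -2.31 in the control males, -2.36 and -2.30 in the NEKO females, and -2.51 and -2.64 in the NEKO males. Both NEKO males were the lowest of all mice, and the difference was -0.20 (SE 0.10, interval -0.43 to 0.02, limma adjusted p = 0.315). Dgat2, which adds the last acyl chain of triglycerides, was at 5.58 and 5.52 in the control females, 5.47 and 5.70 in the control males, 5.60 and 5.69 in the NEKO females, and 5.86 and 5.70 in the NEKO males. NEKO females were above control females by 0.10, and the males overlapped. The Dgat2 difference was 0.14 (SE 0.08, interval -0.05 to 0.34), and its other 2 probes gave 0.08 (SE 0.07) and 0.02 (SE 0.07). Without control male 4 the Dgat2 difference was 0.09, and with quantile normalization its groups did not overlap.

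Srebf1 was at 2.28 and 2.65 in control females 1 and 8, 2.34 and 2.68 in control males 4 and 7, 2.33 and 2.62 in NEKO females 2 and 3, and 3.57 and 3.24 in NEKO males 5 and 6. The NEKO males were above all other mice, and the NEKO females lay within the control range. The pooled difference was 0.45 (SE 0.22, interval -0.06 to 0.96, limma adjusted p = 0.324), from 0.01 in females and 0.89 in males. It was 0.29 without NEKO male 5 and also without control male 4, and 0.71 without control female 8 and NEKO female 2 together. Which Srebf1 transcripts the probe reads is not given in the sources used here, and the array measures RNA, not the cleaved protein.

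**Figure D2:**
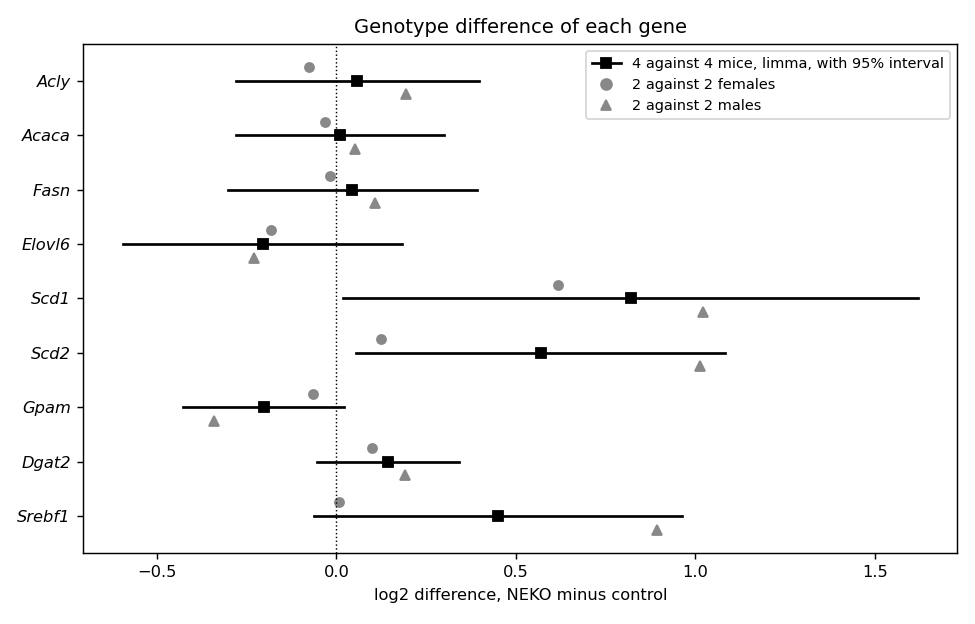
Difference of each gene between NEKO and control kidneys on the log2 scale (horizontal axis), with the limma estimate over 4 against 4 mice and its 95% interval (black squares and lines) and the differences of means within females (grey circles) and males (grey triangles). The interval lies above 0 for Scd1 and Scd2 before adjustment, and the female and male values lie far apart for Scd2 and Srebf1.

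For Scd2 and Srebf1 the genotype difference was larger in males than in females, but the interaction did not pass after adjustment. The difference between the male and female genotype effects was 0.89 (SE 0.30) for Scd2 and 0.89 (SE 0.30) for Srebf1, with limma p-values of 0.0230 and 0.0238 before adjustment and 0.348 and 0.351 after it. None of the 9 genes passed the adjusted test of this interaction, which 0.0147% of named genes did. Within males both NEKO values exceeded both control values for Acly, Scd1, Scd2 and Srebf1, 4 of 9 genes against 25% of named genes, and fell below them for Gpam, against 29.5%. Within females they did so for Scd1 and Dgat2, 2 of 9 genes against 19%, and they were below for 0 of 9, against 23%. The median over the 9 genes was -0.02 in females and 0.19 in males. Scd1 was the only one of the 9 with both NEKO values above both control values in females and in males, as were 7.86% of named genes.

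Elovl6 was lower in males than in females, which lay on separate slides, so that sex and slide cannot be told apart. Its level in males less that in females was -1.07 (SE 0.16, interval -1.46 to -0.68, limma adjusted p = 0.0467), and it was -1.05 in control and -1.10 in NEKO mice. Over all named genes, 0.907% passed this test, and 0.332% were lower in males. The call rested close to the threshold: without any single mouse the adjusted p lay between 0.0598 and 0.147, while the difference stayed between -0.96 and -1.17. Scd1 was also lower in every male than in every female, by 1.16 on average (male minus female -1.16, SE 0.34, limma adjusted p = 0.124). Groups of males and females did not overlap for 2 of the 9 genes, Elovl6 and Scd1, and for 13.3% of named genes. For the other 7 genes the sexes overlapped, with differences from -0.25 for Fasn to 0.49 for Srebf1.

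Profiles over the 8 kidneys were compared after each gene was centred on its own mean, since the levels of different probes cannot be set against each other. Among the 9 genes, Acly and Fasn were closest, with a root mean square difference of 0.17, and Scd2 and Srebf1 lay 0.22 apart. The profiles of Acaca and Scd1 were farthest apart, at 0.96. Of 13514 named genes, those nearest to Elovl6 were Gltpd2 (0.15) and Krt222 (0.19), and those nearest to Scd1 were Angptl8 (0.22) and Abcb1a (0.27). Angptl8 encodes an insulin-responsive regulator of lipoprotein lipase. Nearest to Scd2 were Olfr1153 and Sprr2e (both 0.13), and nearest to Srebf1 were Ltf (0.13), the lactoferrin gene, and Ccdc74a (0.15). These distances are descriptions over 8 arrays, with no test.

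Genes around the pathway were taken from 8 lists with 98 genes, of which 89 were tested. None was called, 41 differences were positive and 48 negative, and the median was -0.01. NEKO values lay above all control values for 6 of the 89 and below them for 4, beside 4.49% and 5.09% of named genes. The list of acetyl-CoA, malonyl-CoA and NADPH supply held the most separated genes, with NEKO values above all control values for 3 of 11 tested genes. Pgd and G6pdx encode the dehydrogenases of the pentose phosphate pathway that produce NADPH. Pgd was at 2.92 to 3.31 in controls and 4.05 to 5.77 in NEKO mice, a difference of 1.70 (SE 0.32, limma adjusted p = 0.0796). G6pdx was at 1.72 to 1.97 in controls and 2.53 to 3.34 in NEKO mice, a difference of 1.01 (SE 0.16, adjusted p = 0.0611). Idh1, the cytosolic NADP-dependent isocitrate dehydrogenase, differed by 0.45 (SE 0.14, adjusted p = 0.184). Groups overlapped for Me1, Tkt and Taldo1 of the same list. Their differences were 0.14 (SE 0.11, adjusted p = 0.521), 0.56 (SE 0.22, adjusted p = 0.249) and 0.26 (SE 0.10, adjusted p = 0.237). Pgd and G6pdx are also known NRF2 targets. Acacb, the carboxylase isoform of the mitochondrial surface, was singled out after its values were seen: it was at -0.25 and -0.32 in the NEKO males, 1.01 and 1.15 in the NEKO females, and 1.13 to 1.56 in controls, with a difference of -0.93 (SE 0.21, adjusted p = 0.114).

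In the other lists the largest separations were few. Among 16 tested genes of glycerolipid synthesis, NEKO values were above all control values for Mogat2, a monoacylglycerol acyltransferase, which differed by 1.48 (SE 0.29, limma adjusted p = 0.0864), and for Lclat1, which differed by 0.35 (SE 0.10, adjusted p = 0.160) but by -0.44 as the mean of its kept probes. Of 5 tested acyl-CoA synthetases, Acsbg1 was above, with a difference of 1.16 (SE 0.37, adjusted p = 0.193). Of 9 tested genes of fatty acid uptake and binding, Fabp3, the heart-type fatty acid binding protein, was below, at 4.96 to 5.56 in controls and 4.12 to 4.85 in NEKO mice (difference -0.80, SE 0.16, adjusted p = 0.0922). Nr1h2, which encodes the oxysterol receptor LXR beta, was below among 16 tested regulators, by -0.16. Bscl2, the seipin gene, was below among 14 genes of lipid droplets and lipolysis, by -0.13 (-0.07 without NEKO male 5), and Mecr was below among 5 of mitochondrial fatty acid synthesis, by -0.19, where all 5 differences were negative. No group was separated in any of the 13 tested other elongases, desaturases and partners, whose differences ran from -0.11 to 0.40. Scd3 and Scd4 were not well above background on any array.

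In the list of 10 NRF2 targets, 9 were tested, 2 were called higher and 5 lay above all controls, with a median difference of 1.05. Gpx2, a glutathione peroxidase gene, differed by 5.40 (SE 0.46, limma adjusted p = 0.0106) and Txnrd1, thioredoxin reductase, by 1.30 (SE 0.17, adjusted p = 0.0486). The Gpx2 call was lost without control male 7 (adjusted p = 0.0552) and without control female 8 and NEKO female 2 together (0.0746). The Txnrd1 call was lost when any mouse other than NEKO female 2 was left out (adjusted p from 0.0741 to 0.155) and without control female 8 and NEKO female 2 together (0.0809). It was also lost with quantile normalization (0.0533), scaling to the median (0.0503), no filter on dim probes (0.0866), detection required on all 8 arrays (0.0502) and no sex term (0.0882). Both calls were lost by the methods' t-test after adjustment (0.306 for Gpx2 and 0.350 for Txnrd1). Srxn1, the sulfiredoxin gene, differed by 1.47 (SE 0.28, adjusted p = 0.0814).

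**Figure D3:**
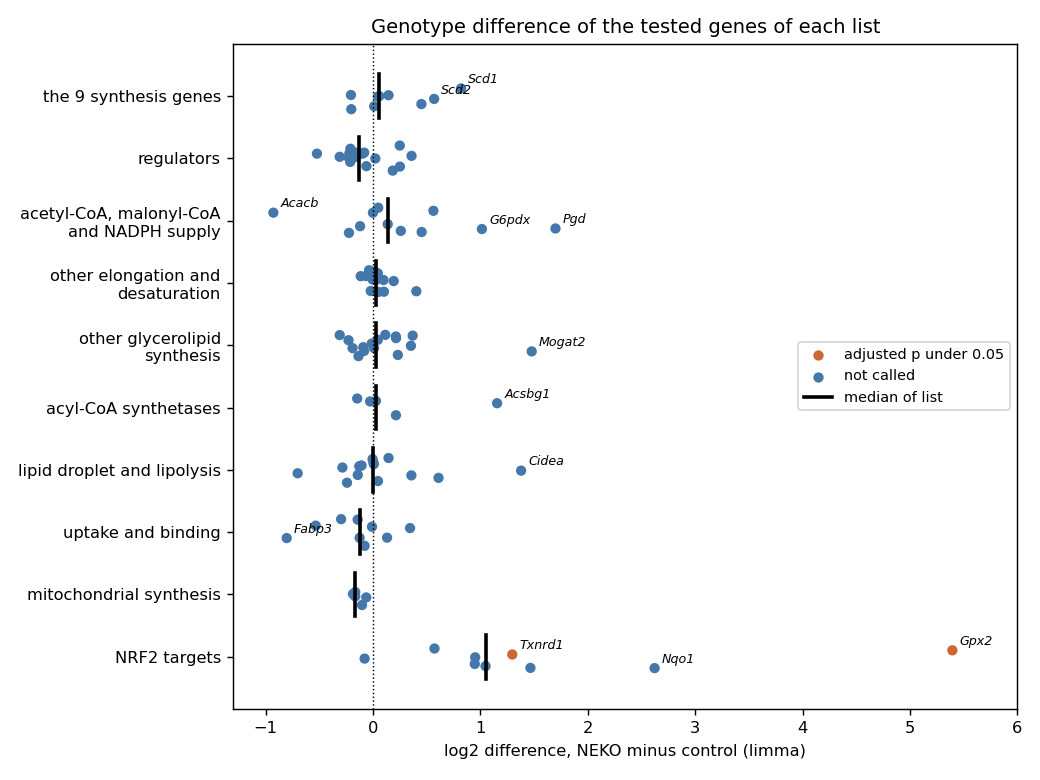
Differences between NEKO and control kidneys on the log2 scale (horizontal axis) of the tested genes of each list (rows), with 1 point per gene and the list median as a black bar; genes with a limma adjusted p under 0.05 are orange. Gpx2 and Txnrd1 among NRF2 targets are the called genes, and the 9 synthesis genes lie between -0.21 and 0.82.

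Markers of other cell types varied between the kidneys. The kidneys carried high levels of the 8 proximal tubule markers, whose summed linear signal relative to the 75th percentile was 514 to 655 in controls and 576 to 664 in NEKO mice. Of these 8 markers, 5 were higher on average in NEKO mice, 1 lay above all controls and 1 below all controls. The adipocyte markers summed to 34.9 and 90.4 in control females 1 and 8, 28.1 and 50.01 in control males 4 and 7, 111 and 39.9 in NEKO females 2 and 3, and 51.9 and 82.5 in NEKO males 5 and 6, with 8 of 10 markers higher on average in NEKO mice and Lep not well above background on any array. Fasn was highest among controls in control female 8 and among NEKO mice in NEKO female 2, the mice with the largest adipocyte sum of their group. Among controls Fasn followed the order of the sums. Among NEKO mice it did not, with 3.94 in NEKO female 3, which had the smallest sum, 3.92 in NEKO male 6 and 3.68 in NEKO male 5. Acly was also highest among controls in control female 8, at 1.21, but lowest among NEKO mice in NEKO female 2, at 0.70. The other synthesis genes were not set beside these sums. Without control female 8 and NEKO female 2 the Elovl6 difference between the sexes was -0.95 (limma adjusted p = 0.189), a call that was also lost without any single mouse. No synthesis gene was then called between the genotypes, as with all 8 mice, so neither result bears on adipocytes in particular. The urothelium markers summed to 1.17 to 3.06 in controls, 2.53 and 2.98 in the NEKO females, and 6.00 and 5.81 in the NEKO males, the same 2 mice in which Scd2 and Srebf1 were highest. Nqo1, Pgd and G6pdx were also highest in these 2 mice. Within males, both NEKO values lay above both control values for 25% of named genes and below them for 29.5%. Of the 6 urothelium markers, 5 were higher on average in NEKO mice, all 6 were well above background on every array, Krt5 lay above all controls with a difference of 1.85 (SE 0.47, limma adjusted p = 0.139), and Upk1a lay below all controls with a difference of -0.71 (SE 0.32, adjusted p = 0.293). The part of adipocytes or urothelium in the levels of the synthesis genes was not tested. In whole kidney RNA, more cells of a type and more RNA per cell cannot be told apart.

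The other marker lists gave sums of 4.24 to 5.46 in controls and 3.69 to 6.81 in NEKO mice for macrophages, where 5 of 7 measured markers were higher on average in NEKO mice, and 0.94 to 1.31 and 0.72 to 1.57 for lymphocytes, where 4 of 8 were and Cd4 and Cd79a were not well above background on any array. They were 0.57 to 0.69 and 0.53 to 0.69 for adrenal cortex, 2 of whose defining genes, Cyp11b2 and Cyp21a1, were not well above background on any array. Thick ascending limb markers summed to 297 to 351 in controls and 198 to 317 in NEKO mice, with the lowest values, 228 and 198, in the NEKO males. Collecting duct markers summed to 44.7 to 55.9 and 34.8 to 49.9. Higher on average in NEKO mice were 0 of 4 thick ascending limb markers and 1 of 8 collecting duct markers. Of the 6 tested lymphocyte markers, 1 lay below all controls.

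**Figure D4:**
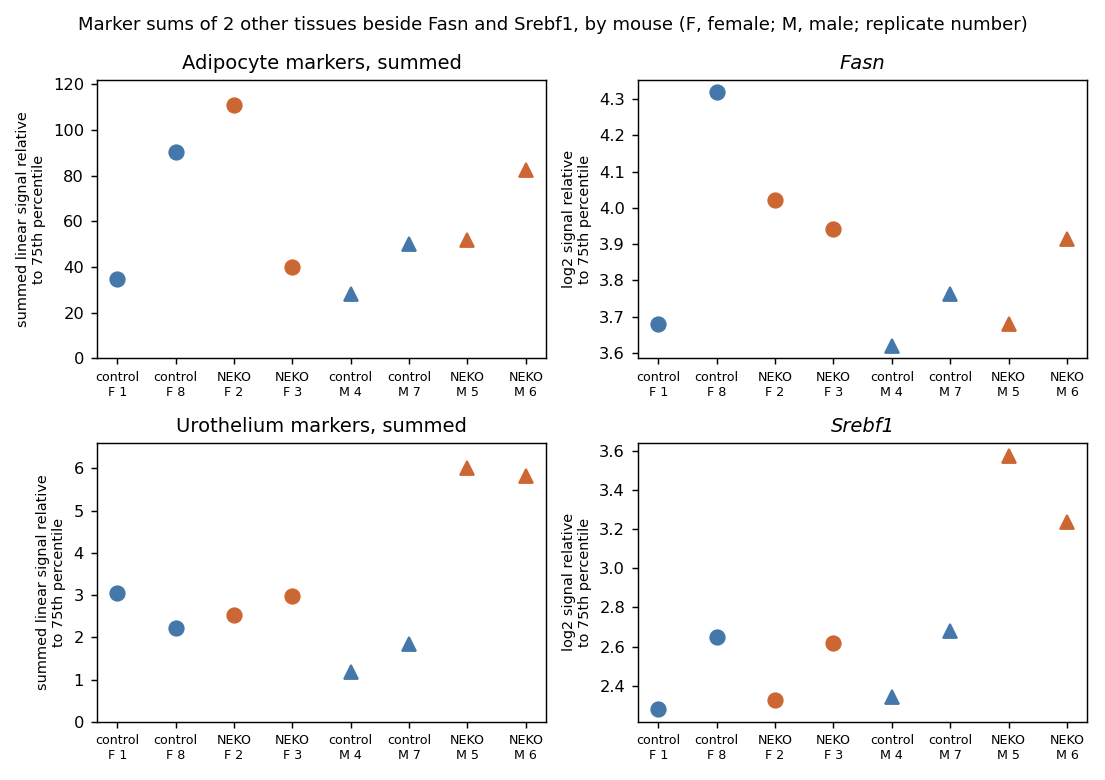
Summed linear signal of adipocyte and urothelium markers over the array's 75th percentile (left, vertical axes from 0) beside the log2 levels of Fasn and Srebf1 (right), with 1 point per mouse, labelled by group, sex and replicate number. Control female 8 is highest in Fasn and second highest in adipocyte markers, and the NEKO males 5 and 6 are highest in both urothelium markers and Srebf1.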

How the data were processed

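Total RNA of 8 kidneys was labelled with Cy3, and the authors deposited the scanner output of Feature Extraction 10.7.3.1, whose processed intensity of each spot is corrected for background and for spatial trends. A deposited matrix on a log2 scale equalled the log2 processed signal less the array's 75th percentile, with each probe centred on its median (0 of 328632 values lay more than 0.01 from it, column medians -0.038 to 0.076).

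Outlier spots, 73 to 172 of 43379 on each array, were left out, spots of a probe were averaged, and the 75th percentile over 41174 non-control probes was subtracted from each array's log2 values. Probes were kept if well above background on at least 4 arrays and measured on at least 6. The brightest kept probe, by its mean, stood for a gene, and 14 of 15 probes of the 9 genes were kept. Through RefSeq accessions of GRCm38.p6, 26682 probes were named. With limma 3.58.1 (R 4.3.3), models of genotype and sex were fitted over 13566 named genes and 6027 unnamed transcripts, an adjusted p under 0.05 was called, and the interaction was tested in a second model. The procedure was also run on simulated data, and the outcome is not given here. The paper's methods do not name the normalization or test of the arrays.

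The members and lists were chosen with earlier results of these data known. Genes were named by rule: the 9 genes, Keap1 and Nqo1, from each list every called gene and the 3 largest differences among genes whose groups did not overlap, cell type markers, and the 2 nearest profiles of members ranging over at least 1 log2 unit. Acacb, Pparg, Thrsp, Cidea, Nfe2l2, Me1, Tkt and Taldo1 were named after looking at their values. Alternatives covered background correction, scaling, filters, probes, covariates, tests and left-out mice. The test without the mouse of each group with the most adipocyte signal, and the test between the sexes, were added after seeing the data.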

Additional observations from a re-analysis of the deposited data

Results flagged for a closer look

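In 4 of the 52 sets of 4 mice looked at, 1 mouse stood far from the other 3, as judged by its gap to the nearest mouse over the range of the set, and chance alone gives about 1 in 20. Control male 4 was low for Nqo1 (0.910) and Srxn1 (0.846), the targets of NRF2, and the same mouse had the lowest Scd1. Nfe2l2 was also lowest among controls in this mouse, at 1.90 where the other controls lay between 3.05 and 3.28. That gene was not put through this criterion. NEKO male 5 was low for Bscl2 (0.927). Control female 1, the only K1 mouse, was low for Pparg, at -1.01 where the other controls lay between -0.72 and -0.71 (0.971). None of the 9 synthesis genes met this criterion.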

How the results depend on the processing

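No synthesis gene was called under any alternative with adjusted p-values, and 2 had an unadjusted limma p under 0.05. No paired analysis was possible because the replicate numbers run over both groups and none is shared. Genes of the 8 pathway lists were called in number 1 with normexp background correction, with array weights, and with a trended, robust eBayes (G6pdx each time), 5 when an interaction was fitted and the genotype effect averaged over females and males (Acacb, Acsbg1, Fabp3, G6pdx and Pgd), and 9 by the methods' t-test without adjustment, which called 743 genes higher and 882 lower overall and, after adjustment, 0 and 1. Quantile normalization separated the groups for 1 synthesis gene, Dgat2. The number of synthesis genes differing between the sexes fell from 1 to 0 with quantile normalization, with no filter on dim probes, and without the mice with the most adipocyte signal, and was 0 to 0 when single mice were left out. Leaving out single mice turned signs: Acly ran from -0.020 (without control 1) to 0.19 (without control 8), Acaca from -0.068 to 0.11 (the same mice, with -0.04, -0.03 and -0.02 without NEKO 2, NEKO 5 and control 7) and Fasn from -0.071 to 0.19 (the same mice, with -0.01 without NEKO 6). Signs also turned for Acaca (-0.085 as the mean of kept probes) and Lclat1 (-0.44 as the mean of kept probes). Over all named genes, 56 were called higher and 82 lower with normexp, 206 and 208 averaged over females and males, 29 and 53 with array weights, 34 and 42 with the trended, robust eBayes, 10 and 16 with no filter, 6 and 12 with detection on all 8 arrays, 9 and 14 with no sex term, 8 to 19 and 7 to 18 without single mice, and 3 and 5 without the mice with the most adipocyte signal, beside 15 and 23. The causes were not tested. No scaling moved the median of all genes by over 0.1.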

Other observations

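Pparg, the lipogenic nuclear receptor gene singled out after its values were seen, was at -1.01 to -0.71 in controls and -0.82 to -0.22 in NEKO mice, a difference of 0.36 (SE 0.12, limma adjusted p = 0.200). Thrsp, a lipogenic factor gene, had its highest value in control female 8 (1.19) and its lowest in NEKO male 5 (-1.44), with a difference of -0.52 (SE 0.42, adjusted p = 0.530). Cidea, a lipid droplet gene of brown and beige adipocytes, ranged from -3.16 in control male 4 to 2.43 in NEKO female 2, and its difference of 1.38 had an SE of 1.27 (adjusted p = 0.585). Thrsp and Cidea were likewise singled out after their values were seen.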
